A study of Monodelphis domestica with 7 samples.

Results

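Of the 21314 genes counted in the series, 3 were taken by identifier as genes of the intracellular calcium store: RYR3 (ENSMODG00000001626), ATP2A1 (ENSMODG00000015558) and TRDN (ENSMODG00000017725). The symbols are those that the study pairs with these identifiers. All 3 stand on the study's list of genes changed after injury at P28, so they were chosen by their counts in the P28+24h injured and P29 control libraries, and those values are given as a description, without a test. RNA came from spinal cord of the gray short-tailed opossum, *Monodelphis domestica*, rostral to a complete transection at thoracic level 10 made at P7 or P28 and left for 24 h, or from the same segment of uninjured cords. Pups of both sexes were used, of no named genotype, the P8 controls came from litters other than the injured ones, and the P29 controls were mostly anaesthetised littermates. The 7 libraries were 2 of P8 control, 2 of P7+24h injured, 1 of P29 control and 2 of P28+24h injured cords. The paper states pools of 2 individuals for library preparation. Its animal totals are larger than 7 such pools would hold, so the number of animals behind each library is not settled.

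The endoplasmic reticulum, and in muscle its specialised form the sarcoplasmic reticulum, holds the calcium that a cell can release from within. Ryanodine receptors are the release channels of this store. Calcium pumps of the SERCA family return calcium to it, and triadin sits in the reticulum membrane, where it links the ryanodine receptor to the calcium buffer calsequestrin. RYR3 encodes the ryanodine receptor first known from brain. ATP2A1 encodes SERCA1, the pump typical of fast-twitch skeletal muscle, and TRDN encodes triadin, known best from skeletal and cardiac muscle.

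In the RefSeq annotation of the mMonDom1 assembly, which is not the build of the counts and was used for gene order alone, each symbol had 1 entry. The protein-coding gene AVEN lay beside RYR3, ATP2A1 lay between RABEP2 and SH2B1, and TRDN lay between CLVS2 and NKAIN2. RYR3 and ATP2A1 each belong to a family of close relatives. The handling of reads shared between relatives and the use of strand were not given in the sources used here, so reads from relatives or from the opposite strand cannot be told apart.

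Library totals ranged from 3332232 to 6256074 counts, and sequencing took place in 2 runs, on cords from separate collections. Each group with 2 libraries had 1 in each run, and the only P29 control was of run 1. Run and collection therefore differ together, and for the P29 control the run cannot be separated from the group. GFAP, the intermediate filament of astrocytes and a marker of cord tissue, lay between 256 and 2386 CPM over all 7 libraries and was lower in run 1 than in run 2 in each group with both. CPM here is the count scaled to the library size after TMM adjustment, a factor that corrects for a few abundant genes. It takes no account of gene length, so levels are compared between libraries and not between genes.

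RYR3, the release channel, was read in every library. In P8 controls it had 442 reads in run 1 and 217 in run 2, or 109 and 35.8 CPM. In P7+24h injured cords it had 272 and 186 reads, or 71.4 and 27.8 CPM. The P29 control had 151 reads, or 43.4 CPM. After injury at P28 there were 309 and 325 reads, or 109 and 52.7 CPM. The run 1 libraries of P8 control and P28+24h injured cords were thus the highest and almost equal, and both run 2 libraries of P8 age were the lowest.

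As group means, RYR3 was highest in P28+24h injured cords (80.9 ± 39.9 CPM, SD, n = 2), then in P8 controls (72.6 ± 52.1, SD, n = 2) and P7+24h injured cords (49.6 ± 30.8, SD, n = 2), with the single P29 control at 43.4 CPM. No neighbours in this order differed by more than the SD of the replicated groups, and the P29 control lay inside the range of every other group but that of P28+24h.

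ATP2A1, the pump, was counted at a lower number of reads. In P8 controls it had 50 reads in run 1 and 11 in run 2, or 12.4 and 1.81 CPM. In P7+24h injured cords it had 40 and 17 reads, or 10.5 and 2.54 CPM. The P29 control had 24 reads, or 6.90 CPM. After injury at P28 there were 45 and 55 reads, or 15.9 and 8.92 CPM. All run 1 values except that of the P29 control lay above all run 2 values.

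The order of the ATP2A1 group means was P28+24h injured (12.4 ± 4.93 CPM, SD, n = 2), P8 control (7.10 ± 7.47, SD, n = 2), the P29 control at 6.90 CPM and P7+24h injured (6.52 ± 5.63, SD, n = 2). The steps between P8 control, P29 control and P7+24h injured were far smaller than these SDs. The step from P28+24h injured to P8 control, the next in order, was also smaller than the SD of the P8 controls.

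TRDN, the linker, was close to the limit of detection in 6 of the 7 libraries. It had 2 and 3 reads in the P8 controls, 2 and 2 in the P7+24h injured cords, 0 in the P29 control, and 17 in run 1 and 1 in run 2 of the P28+24h injured cords. The 17 reads correspond to 6.0 CPM, with an exact 95% Poisson interval of 3.50 to 9.61, and the single read to 0.162 CPM (0.00411 to 0.903). The 0 of the P29 control has an interval up to 1.06 CPM, and the floor of 3 reads set for folds stands at 0.862 CPM in that library. The intervals cover counting error alone.

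**Figure D1:**
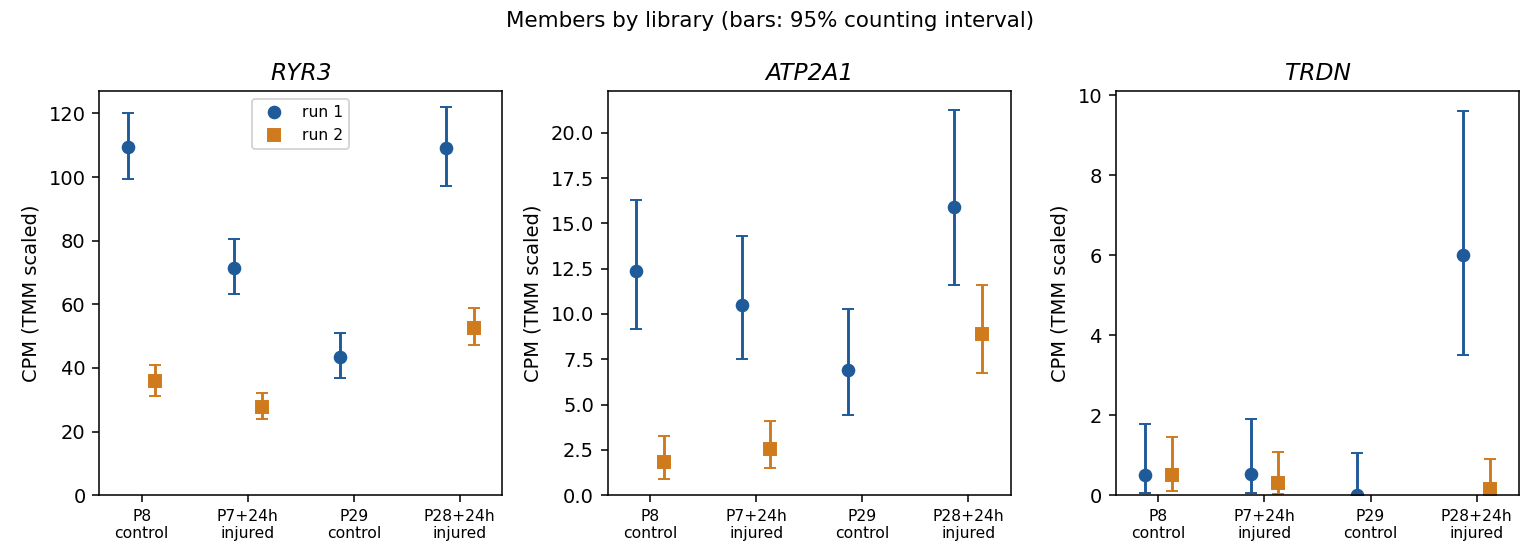
CPM after TMM scaling (vertical axes, from 0) of RYR3, ATP2A1 and TRDN in each of the 7 libraries, by group, with circles for run 1, squares for run 2 and bars for exact 95% Poisson intervals of the counts. RYR3 and ATP2A1 are higher in run 1 than in run 2 in each group with both runs, and TRDN stands out only in the run 1 library of P28+24h injured cords, at 6.0 CPM.

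The injury at P7 gave a comparison that did not choose these genes, although their values in all 7 libraries were known when they were taken. RYR3 was lower after injury in both runs, by 1.53-fold in run 1 and 1.29-fold in run 2. ATP2A1 went opposite ways, with an injured library 1.18-fold lower than the control in run 1 and 1.40-fold higher in run 2. For TRDN all 4 libraries had 2 or 3 reads and no fold is given.

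Neither RYR3 nor ATP2A1 passed the P7+24h test, and the reads of TRDN were too few for the test to bear on it. With edgeR's quasi-likelihood test over all 13534 genes tested, the log2 change of RYR3 was -0.55 (standard error 0.71, adjusted p = 1) and that of ATP2A1 was -0.13 (standard error 1.02, adjusted p = 1). With the run as a block the RYR3 change was -0.50 (standard error 0.18), with an unadjusted p of 0.0182 and an adjusted p of 1, and ATP2A1 was at -0.04 (standard error 0.43, adjusted p = 1). The share of genes called (adjusted p under 0.05, minimum fold 2) was 0% in each direction without the block. There 69 genes had an unadjusted p under 0.05, and 5 were called by edgeR's exact test and 2 by DESeq2. With the block 0.0148% were raised and 0% lowered, and 313 of the 13534 genes, RYR3 among them, had an unadjusted p under 0.05.

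Lower values in the injured library in both runs, as for RYR3, were found in 26.7% of the genes tested. Without the run 1 P8 control the unblocked RYR3 change turned to 0.47, and that of ATP2A1 to 1.80. ATP2A1 also turned, to 0.60, without the run 2 P7+24h injured library. Leaving out 1 library leaves the runs unbalanced between the groups, and run 1 was the higher for both genes. Paired within runs RYR3 was lower after injury in each, whereas ATP2A1 was not.

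At P28+24h, the age for which the genes were listed, all 3 genes were higher in the injured cords of run 1 than in the matching P29 control. RYR3 was 2.51-fold higher, with an exact 95% counting interval of 2.06 to 3.08, and ATP2A1 was 2.30-fold higher (1.37 to 3.95). TRDN, with 0 reads in the control, was at least 6.96-fold higher against 3 reads in that library, while the exact 95% counting interval of the same pair starts at 5.07-fold. Against the same control, the run 2 injured library was 1.21-fold higher for RYR3 (0.998 to 1.48) and 1.29-fold higher for ATP2A1 (0.787 to 2.18), and for TRDN both were at or under 3 reads. The excess over the control was thus large in run 1. In the second library, which has no control of its own run here, it was small for RYR3 and ATP2A1, with intervals that include no change.

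Both injured libraries lay above the control for RYR3 and for ATP2A1, as did 22.2% of the genes tested, a contrast that also chose the genes. The fitted log2 change over both injured libraries was 0.89 for RYR3 and 0.83 for ATP2A1. With the run as a block these were 1.48 and 1.66, where the run difference seen in the other groups is carried over to the P29 control. The mean of TRDN over both injured libraries (3.08 ± 4.13 CPM, SD, n = 2) was 3.58-fold the level of 3 reads in the control. That is no bound for each library, since the run 2 library, at 0.162 CPM, lay below the 0.862 CPM of that floor. All but 1 of the injured reads behind the mean came from the run 1 library.

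Levels of the markers of other cells also differed between these libraries. Against the P29 control, SLC18A3 went from 103 CPM to 40.3 in the run 1 and 127 in the run 2 injured library. The summed level of the myeloid genes CSF1R, C1QA and C1QB went from 79.6 CPM to 264 and 176, and at P7+24h from 17.1 to 60.7 in run 1 and from 19.3 to 77.6 in run 2. An identifier was at hand for 3 of the 8 myeloid and 1 of the 16 neuron symbols listed. These identifiers come from the study's lists of genes changed after injury, that of P28 for SLC18A3 and those of both ages for the myeloid genes. The direction of the myeloid genes there is fixed by that choice. SLC18A3, also chosen there, lay below the P29 control in the run 1 injured library and above it in that of run 2. The part of these markers in the values of the calcium store genes was not tested.

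**Figure D2:**
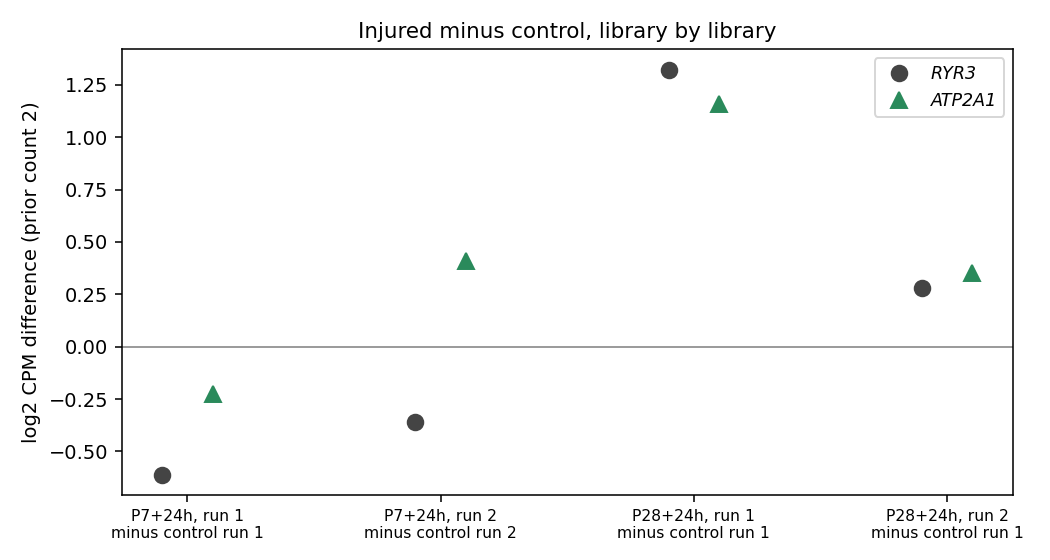
Difference in log2 CPM (vertical axis, prior count 2) between each injured library and its control for RYR3 (circles) and ATP2A1 (triangles). The P28+24h differences are 1.32 and 1.16 in run 1 and 0.28 and 0.35 for the run 2 library against the run 1 control, and those at P7+24h lie between -0.61 and 0.41.

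For RYR3 the runs differed by about as much as the injured and control cords of run 1 that chose it, and for ATP2A1 they differed by more in the libraries of P8 age. RYR3 was 3.06-fold higher in run 1 than in run 2 among the P8 controls, 2.57-fold among the P7+24h injured cords and 2.07-fold among the P28+24h injured cords. ATP2A1 was 6.83-fold, 4.13-fold and 1.78-fold higher in run 1 in the same groups. Both genes were therefore higher in run 1 in all 3 groups with both runs, as were 34.8% of the genes tested.

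Among the P8 controls, 1.60% of the genes tested had a run 1 excess as large as that of RYR3 on the log2 scale, and 0.332% one as large as that of ATP2A1. Among the P7+24h injured cords these shares were 2.43% and 0.680%, and among the P28+24h injured cords 11.9% and 17.9%. The pair thus stood near the end of the range over genes in the libraries of P8 age, none of which took part in the comparison that chose them. The cord markers GFAP and SLC18A3, the acetylcholine transporter of motor neurons, went the other way. GFAP was at 256 CPM in run 1 and 672 in run 2 in P8 controls, 406 and 996 in P7+24h and 1455 and 2386 in P28+24h injured cords, and SLC18A3 was at 77.0 and 116, 74.6 and 153, and 40.3 and 127 CPM. The part of cell make-up in the run difference was not tested. TRDN, with 2 or 3 reads in each library of P8 age, gave no measure of the run there. Among the P28+24h injured cords it was 37.0-fold higher in run 1, with a counting interval from 5.80 to 1547.

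**Figure D3:**
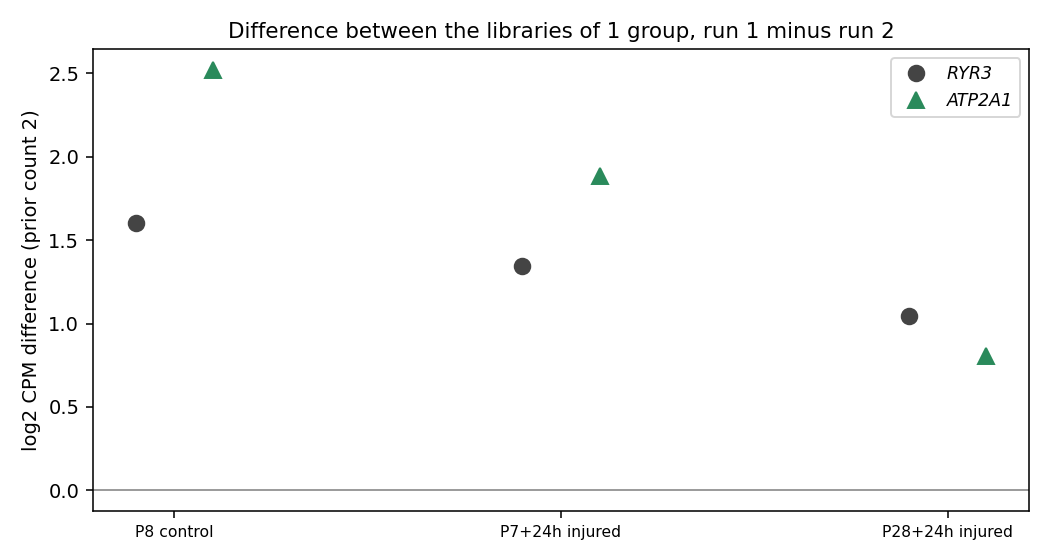
Difference in log2 CPM (vertical axis, prior count 2) between the run 1 and the run 2 library of each group for RYR3 (circles) and ATP2A1 (triangles). Every difference is above 0, from 1.04 to 1.60 for RYR3 and from 0.80 to 2.52 for ATP2A1.

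Within run 1 alone, the P29 control was the lowest of the 4 libraries for RYR3 and ATP2A1, as it was for 24.8% of the genes tested. TRDN had 0 reads there against 2 in each run 1 library of P8 age, all under the floor, so these could not be ranked. RYR3 lay at 71.4 to 109 CPM in the other 3 run 1 libraries against 43.4 CPM in that control. ATP2A1 lay at 10.5 to 15.9 CPM in the others, with those of P8 age among them, against 6.90 CPM. From P8 to P29, control to control in run 1, RYR3 was 2.52-fold lower (0.327 to 0.478 as a ratio) and ATP2A1 1.79-fold lower (0.327 to 0.924 as a ratio), while the only P8 control of run 2 lay below the P29 control for both genes. Each P28 change rests on this 1 control library, which could not be left out.

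Between injured cords of the 2 ages each run had its own pair, although the P28+24h values among them also chose the genes. RYR3 was 1.53-fold higher at P28+24h than at P7+24h in run 1 and 1.89-fold higher in run 2. ATP2A1 was 1.51-fold higher in run 1 (0.966 to 2.38) and 3.51-fold higher in run 2 (2.01 to 6.45). Differences as large in the same direction were found for 27.7% and 15.5% of the genes tested for RYR3, and for 28.6% and 5.92% for ATP2A1, in runs 1 and 2. TRDN had 17 against 2 reads in run 1 and 1 against 2 in run 2.

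The number of ATP2A1 reads per 100 RYR3 reads in the same library needs no scaling for depth. It was 15.9 in the P29 control (exact 95% interval 9.88 to 24.6). In the P28+24h injured cords it was 14.6 (10.4 to 20.0) in run 1 and 16.9 (12.5 to 22.6) in run 2. The ratio was thus similar across the 3 libraries of P29 age within these wide intervals. The same 3 libraries chose both genes, so this likeness is a description. In P8 controls the ratio was 11.3 in run 1 and 5.07 in run 2 (2.49 to 9.25), and in P7+24h injured cords it was 14.7 and 9.14. The ratio was lower in run 2 than in run 1 in both groups of P8 age, with intervals that overlapped, and the P7+24h value of run 1 lay within the range at P29 age.

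**Figure D4:**
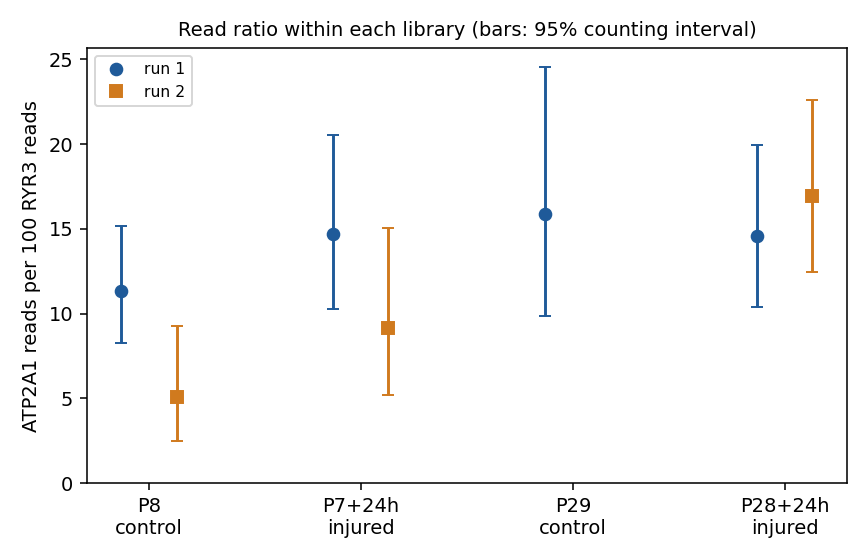
ATP2A1 reads per 100 RYR3 reads in each library (vertical axis, from 0), with circles for run 1, squares for run 2 and bars for exact 95% intervals that cover counting error alone. The 3 libraries of P29 age lie between 14.6 and 16.9, and the 4 of P8 age spread from 5.07 to 14.7.

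Skeletal muscle genes with an identifier were higher in both injured P28 libraries than in the P29 control. In run 2 the excess was slight for ACTN3 (4.54 against 4.02 CPM) and TPM2 (4.22 against 3.74). An identifier was at hand for 9 of the 43 muscle symbols listed, and all 9 come from the study's table of the P28 comparison, so their direction there is fixed by that choice. Their summed level was 59.8 CPM in the P29 control, 126 to 284 CPM in the P28+24h injured cords, 71.5 to 178 CPM in the P8 controls and 75.5 to 154 CPM in the P7+24h injured cords. Much of that sum was SPEG, a muscle kinase gene, with 39.4 CPM in the P29 control and 167 CPM in the run 1 P8 control. Of the 7 symbols that define the tissue, MYL1, MYLPF and ACTA1 had an identifier. Of these 3, 0 were at 0 reads in any library. MYL1 and ACTA1 were at or under the floor in the P29 control, with 1 and 3 reads. So were MYLPF (2 reads) and ACTA1 (3) in the run 1 P8 control, MYL1 (3) in that of run 2 and MYLPF (3) in the run 1 P7+24h injured library. The summed level of the 3 genes was 3.16 CPM in the P29 control and 119 and 31.3 CPM in the P28+24h injured cords of runs 1 and 2. It was 2.23 and 3.63 CPM in the P8 controls and 3.41 and 10.2 CPM in the P7+24h injured cords. In run 1, ATP2A1 stood at 12.4 CPM in P8 control, 10.5 in P7+24h injured, 6.90 in P29 control and 15.9 in P28+24h injured cords. There these 3 genes summed to 2.23, 3.41, 3.16 and 119 CPM. In run 2, ATP2A1 stood at 1.81 CPM in P8 control, 2.54 in P7+24h injured and 8.92 in P28+24h injured cords. The 3 genes summed there to 3.63, 10.2 and 31.3 CPM. The part of muscle RNA in the P28+24h values of ATP2A1 and TRDN was not tested. In bulk tissue, more or fewer cells of a type cannot be told apart from more or less RNA per cell.

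Beside the 17 and 1 reads of TRDN, the fast myosin light chain gene MYL1 had 143 and 42 reads in the injured P28 libraries of runs 1 and 2 and 1 in the control. MYLPF, the other fast light chain, had 166, 45 and 7 reads. Both were higher in run 1, by 7.42-fold and 8.03-fold in CPM. ACTA1, the skeletal alpha actin, had 27 and 106 reads and was 1.80-fold higher in run 2. Over the 9 genes, 7 were higher in the run 1 than in the run 2 injured library, while NEB and ACTA1 were not.

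**Figure D5:**
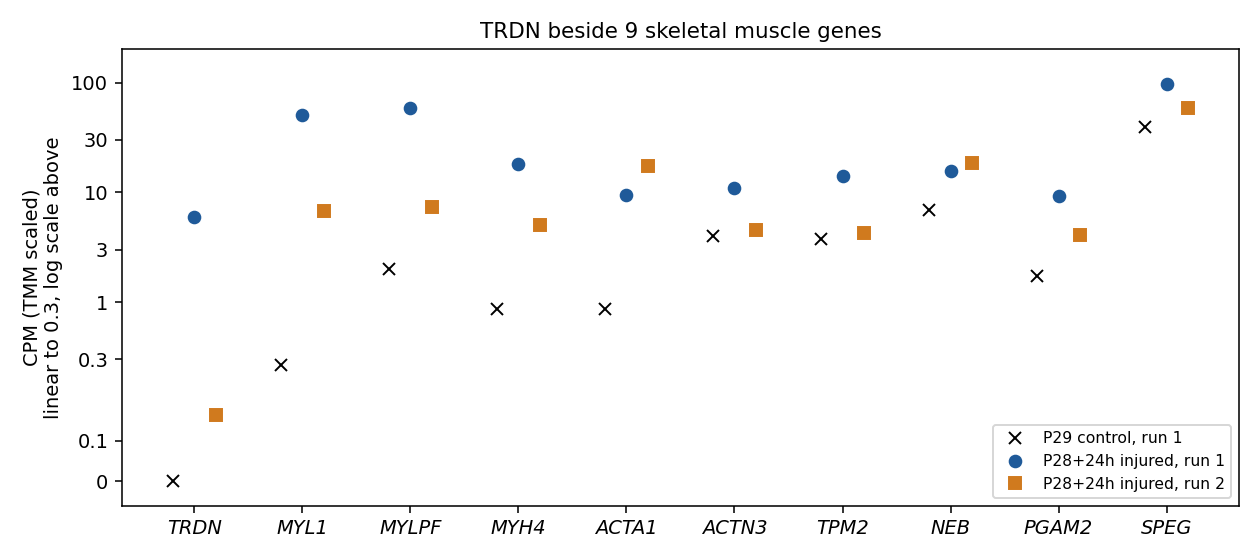
CPM after TMM scaling (vertical axis, linear to 0.3 and logarithmic above) of TRDN and 9 skeletal muscle genes in the P29 control (crosses) and the P28+24h injured libraries of run 1 (circles) and run 2 (squares). TRDN is at 0 in the control and 0.162 in the run 2 injured library, while MYL1 is at 6.81 and ACTA1 at 17.2 CPM in that run 2 library.

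The likeness of the 3 genes to each other was uneven. It was measured as the root mean square difference between log2 CPM values, each gene centred on its mean, over the 7 libraries. RYR3 stood at rank 123 in likeness to ATP2A1 (distance 0.49) among the genes tested, and ATP2A1 at rank 881 in likeness to RYR3. TRDN stood at rank 8117 in likeness to RYR3 (distance 0.93) and 8005 to ATP2A1 (distance 1.17). Ranked from TRDN, RYR3 stood at 654 and ATP2A1 at 4882.

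The gene closest to RYR3 was CLDN15, a tight junction claudin, at a distance of 0.13 (Pearson's r 0.98 over 7 libraries), with 13.9 and 3.79 CPM in the P8 controls, 13.8 and 7.78 after injury at P28, each in runs 1 and 2, and 5.46 in the P29 control. ZNF473 and FAM73A were also among its 5 closest. For ATP2A1 the closest was NPR2, the receptor for C-type natriuretic peptide, at a distance of 0.13 (r 0.99 over 7 libraries), followed by MYO19, a mitochondrial myosin, and then by MCOLN1, a cation channel of lysosomes, and CRTC2, a coactivator of CREB. All of these were higher in run 1 than in run 2 within each group, as both members were. Symbols were at hand only for genes in the study's own lists, where MYO19 and MCOLN1 stand among those raised at P28. Which neighbours are named therefore depends in part on the choice that also gave the members. The libraries share run and depth, so such likeness is a description.

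None of the 5 genes closest to TRDN had a symbol at hand. The nearest, ENSMODG00000029403, at a distance of 0.31, had 5.30 CPM in the run 1 library of P28+24h injured cords and at most 0.495 CPM in each of the others. It thus shared with TRDN a level above the floor in that 1 library. Both genes passed the minimum count through that library alone, so the shared level there follows from the filter and is a description.

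Other genes of the calcium store could not be followed. Of 46 further symbols listed, among them the other ryanodine receptors and SERCA pumps, calsequestrins, junctophilins and store-operated channels, 0 could be paired with an identifier, and they were not analysed here.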

How the data were processed

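The deposited values are whole-number counts per gene. Trimmed reads were aligned by the authors to Ensembl release 69 (Bowtie2), and HTSeq's union mode gave the number on each nuclear gene, without scaling. Symbols came from the study's supplementary gene tables, since the RefSeq table holds no Ensembl identifiers. Members and lists were chosen with earlier results of these data known.

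Counts were scaled by TMM. filterByExpr at a minimum count of 10 kept 13534 genes, which were tested with edgeR 4.0.16 (R 4.3.3, limma 3.58.1) by the quasi-likelihood test over the 4 groups with 3 residual degrees of freedom, the P29 control taking its spread from the others. P-values were adjusted by Benjamini-Hochberg. All 3 members passed, TRDN through 1 library. Standard errors come from the F statistic. Log2 CPM used a prior count of 2, and counts of 3 or fewer were the floor. The replicate number is the run, which pairs libraries. The run 1 minus run 2 difference of the P8 controls had a correlation across genes of 0.80 with that of P7+24h and 0.70 with that of P28+24h injured cords, and these had one of 0.74. The replicate block left 2 degrees of freedom and lowered the common dispersion from 0.141 to 0.0181.

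Alternatives were the block, edgeR's exact test (the study's tool), DESeq2 1.42.0, RLE factors, library size alone, no filter and leaving out each replicate. Named are the members, listed genes with an identifier, and the 5 genes closest to each member. The scripts were tested on simulated data. Python 3.11, pandas 2.3.3 and scipy 1.17.1 were used. Some results are not reported here.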

Additional observations from a re-analysis of the deposited data

Results flagged for a closer look

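RYR3 was lower in the injured library of both runs at P7+24h (log2 differences of -0.61 and -0.36) and higher than the P29 control in both injured libraries at P28+24h (1.32 and 0.28), a gap of 1.93 between the ages for the run 1 injured libraries and of 0.64 for those of run 2, whose P28+24h value is against a run 1 control. The fitted difference was 1.44 and lay between 0.42, without the run 1 P8 control, and 2.27 when 1 replicate was left out. Since the P28 values chose the gene, no p is given for it, and the difference was not tested independently of that choice.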

How the results depend on the processing

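The genes called at P7+24h numbered 0 without the block, 2 with the replicate block, 5 in edgeR's exact test and 2 in DESeq2, and at P28+24h 0 (157 at an unadjusted p under 0.05), 102, 3 and 0. The difference between the ages gave 0 genes (59 at an unadjusted p under 0.05), and 5 with the block. P29 against P8 controls gave 242 genes, 2893 with the block, 972 in the exact test, 855 in DESeq2, 138 with library size alone and 0 to 139 when 1 replicate was left out, with 0 without either P8 control (1775 and 1369 at an unadjusted p under 0.05 without that of run 1 or run 2). The block changed no call of RYR3 or ATP2A1 at P7+24h.

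At P7+24h, leaving out 1 replicate moved the log2 change of RYR3 between -1.38 and 0.47 and that of ATP2A1 between -1.44 and 1.80. It reversed RYR3 without the run 1 P8 control (0.47) and ATP2A1 without that library (1.80) or the run 2 injured library (0.60). At P28+24h the ranges were 0.27 to 1.27 and 0.36 to 1.14. No bound for TRDN could be given without the run 1 injured library. Pearson's r in place of the distance kept 1 of the 5 genes closest to RYR3 and 3 each for ATP2A1 and TRDN. The reads limit TRDN most, with at most 3 in 6 of 7 libraries.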
